A study of Mus musculus with 8 samples.

Results

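The genotype effect without glucocorticoid was examined by comparing vehicle-treated epidermis of REDD1 KO mice with that of vehicle-treated wild-type mice. The comparison takes its means from 4 of the 8 Illumina MouseRef-8 v2.0 arrays of the series. These are REDD1 KO vehicle replicates 1 and 2 and wild-type vehicle replicates 1 and 2. The spread behind the standard errors (SE) and p-values was estimated from all 8 arrays. The comparison covers 13131 of 25697 probes, those detected above the negative controls in at least 2 of the 8 arrays. All groups were females aged 7 weeks in telogen, the resting phase of the hair cycle, whose back skin was shaved before treatment. The REDD1 KO vehicle mice carried a Ddit4 allele with exon 2 replaced by a LacZ/neo cassette on a mixed B6x129 background and received acetone alone. The wild-type vehicle mice were B6x129 females bought from a commercial breeder and received acetone alone. REDD1 KO FA and wild-type FA mice received 2 µg of fluocinolone acetonide (FA), a glucocorticoid, in acetone, and epidermis was taken 24 h later. The sample labels name the strain as B6D2, the source as the posterior ear lobe and the control animals as untreated, which differs from the study's methods, and the methods are followed here. Genotype and source of the mice cannot be told apart in this design, since the mutants and the controls came from different sources.

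REDD1, the product of Ddit4, is a stress-induced inhibitor of mTORC1, the kinase complex that drives protein synthesis and restrains autophagy. It acts upstream of the TSC1-TSC2 complex and is itself induced by glucocorticoids, hypoxia and DNA damage. The epidermis is a layered epithelium in which basal keratinocytes divide, leave the basement membrane and differentiate into cornified cells, with Langerhans cells and resident T cells between them.

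Keratinocyte markers were present throughout: 7 of 7 basal markers and 5 of 6 suprabasal markers on the array were detected on each of the 4 vehicle arrays. Markers of mast cells were undetected on all 4 arrays (4 of 4), as were 4 of 5 melanocyte markers. Summed linear signals of skeletal muscle markers were 1543 and 307 in REDD1 KO and 869 and 883 in wild-type epidermis, and those of sebaceous gland markers were 6931 and 11400 in REDD1 KO and 12600 and 9505 in wild-type epidermis. Summed fibroblast markers were 770 and 620 in REDD1 KO and 491 and 431 in wild-type epidermis, so they did not overlap. REDD1 KO arrays also lay above wild-type arrays for red blood cell markers (269 and 173 in REDD1 KO, 136 and 163 in wild-type), endothelium (114 and 116 in REDD1 KO, 98.7 and 91.0 in wild-type), adipocytes (114 and 112 in REDD1 KO, 110 and 93.9 in wild-type) and mast cells (87.2 and 87.0 in REDD1 KO, 86.5 and 78.2 in wild-type). Few of these markers were detected on all 4 vehicle arrays: 1 of 6 for fibroblasts, 1 of 3 for red blood cells and 1 of 4 for endothelium. For adipocytes it was 0 of 5 and for mast cells 0 of 4. These sums thus hold much background signal, and 37.3% of all tested probes did not overlap between the genotypes. The part of these cell types in the results was not tested. In bulk epidermis, fewer cells of a type and less RNA per cell cannot be told apart. The arrays were similar in brightness, with a median intensity of 95.9 to 107 and 44.5% to 46.7% of probes detected, and REDD1 KO arrays correlated with wild-type arrays at r = 0.980 to 0.982 over the tested probes.

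Ddit4 was the first gene examined. Its normalized log2 signal was 7.42 and 7.09 in REDD1 KO and 10.08 and 9.16 in wild-type vehicle epidermis. Both REDD1 KO arrays lay below both wild-type arrays, yet the probe remained above background in the mutants. The log2 difference was -2.37 ± 0.294 (SE, n = 2 per genotype; limma adjusted p = 0.0096). The call was lost without REDD1 KO vehicle replicate 1 or replicate 2. It was also lost without background correction, without a probe filter and with only the 4 vehicle arrays fitted (limma adjusted p up to 0.0886). Whether the probe reads the replaced exon is not stated in the labels or the methods. Within 5 Mb on either side of Ddit4 in the RefSeq annotation, 54 further probes of 41 genes were tested and 0 passed an adjusted p of 0.05 in limma. Of these, 2 had an unadjusted p under 0.05: Hsf2, a heat shock transcription factor, with a log2 difference of 0.67, and Herc4, a ubiquitin ligase, with -0.46. The median over the 54 probes was -0.003.

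Few genes separated the genotypes in vehicle-treated epidermis. At a limma adjusted p under 0.05, which defines a call here, 67 of 13131 probes (0.51%) differed, 22 higher in REDD1 KO (0.168%) and 45 lower (0.343%). The median log2 difference over all tested probes was 0.0036. At an unadjusted p under 0.05, 549 probes were higher and 585 lower. The arrays of the genotypes did not overlap in 37.3% of the tested probes, so non-overlap by itself is common with 2 arrays per group. The called probes name 57 genes, 19 higher and 38 lower, and 6 called probes have no symbol. The largest differences were on the lower side, with 27 of the 32 called probes that differed by at least 1.5 on the log2 scale. The study describes the arrays as those of individual animals, while the labels do not state it.

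**Figure D1:**
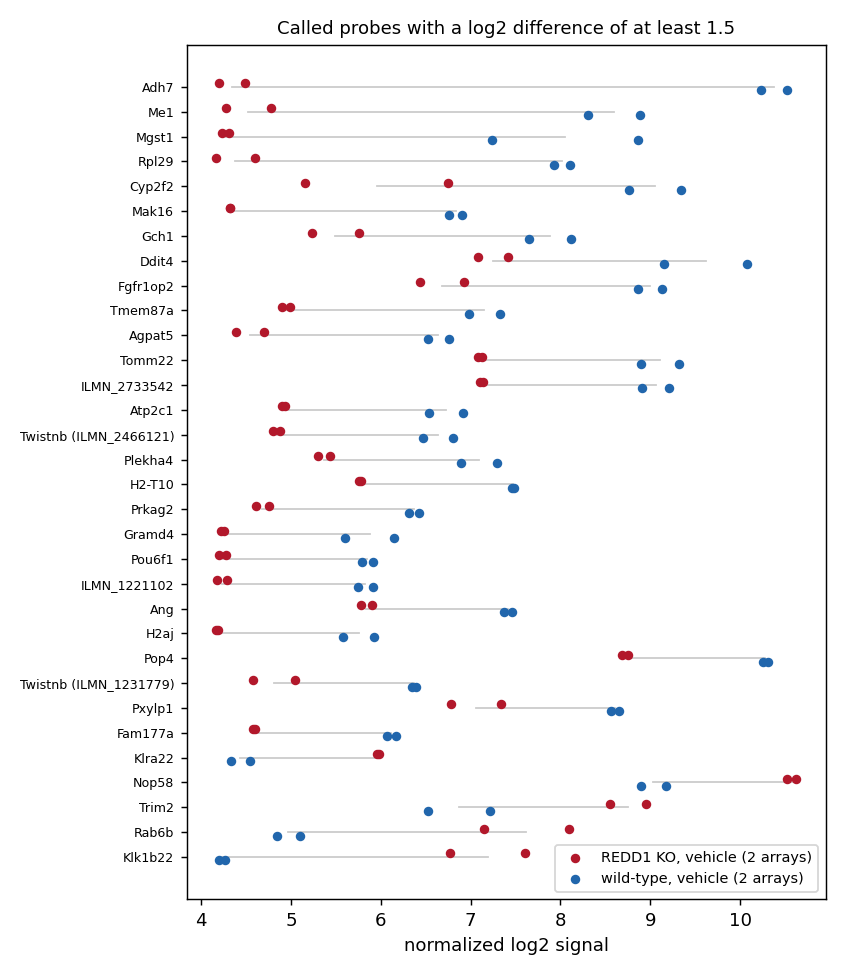
Normalized log2 signal (x axis) of the 32 called probes with a log2 difference of at least 1.5, on each vehicle array (red, REDD1 KO; blue, wild-type; 2 arrays each), with a grey line between the group means; levels are to be compared within a row. In 27 rows both REDD1 KO arrays lie left of both wild-type arrays, from Adh7 (4.49 and 4.20 in REDD1 KO against 10.53 and 10.24 in wild-type) to Fam177a, and in 5 rows they lie right of them.

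Among called metabolic enzymes, probes of Adh7, Me1, Mgst1, Cyp2f2, Gch1 and Agpat5 were lower in REDD1 KO by at least 2 on the log2 scale. Second probes of Me1 (0.15) and Mgst1 (-0.26), with higher signals, were not called. Adh7, a class IV alcohol dehydrogenase that oxidizes retinol in epithelia, had signals of 4.49 and 4.20 in REDD1 KO and 10.53 and 10.24 in wild-type epidermis. The gene was not above background on either REDD1 KO array and was at least 54.4-fold lower (limma adjusted p = 1.35e-06). For this bound, the signal on a REDD1 KO array was raised to the lowest detected signal of that array wherever it fell below it, and the same was done for each "at least" in the text. Me1, the cytosolic malic enzyme that makes NADPH, had 4.27 and 4.77 in REDD1 KO and 8.30 and 8.89 in wild-type epidermis, a log2 difference of -4.08 ± 0.23 (SE). Mgst1, a microsomal glutathione S-transferase, had 4.23 and 4.31 in REDD1 KO and 8.87 and 7.24 in wild-type epidermis on its called probe. That probe was at least 10.8-fold lower. The wild-type arrays of Mgst1 differed from each other by more than those of Adh7 or Me1. Its call was lost without REDD1 KO vehicle replicate 1 or replicate 2 (adjusted p up to 0.0883). Cyp2f2, a cytochrome P450 of xenobiotic metabolism, had 5.16 and 6.75 in REDD1 KO and 9.34 and 8.76 in wild-type epidermis, a log2 difference of -3.10 ± 0.465 (SE). Its REDD1 KO arrays were far apart but both below wild-type, and omitting REDD1 KO vehicle replicate 1 or either wild-type vehicle array ended the call (adjusted p up to 0.151).

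Gch1, which catalyses the first step of tetrahydrobiopterin synthesis, was called by both of its tested probes. The first had 5.23 and 5.75 in REDD1 KO and 7.65 and 8.12 in wild-type epidermis, and the second had 4.28 and 4.55 in REDD1 KO and 5.71 and 5.69 in wild-type epidermis. The log2 differences were -2.39 and -1.29. The first lost its call without REDD1 KO vehicle replicate 1 or wild-type vehicle replicate 2 and the second without any 1 of the vehicle arrays, with adjusted p values of up to 0.0584 and 0.171. The other 7 tested members of the 8-gene tetrahydrobiopterin list were not called, among them Gchfr, the feedback regulator of the enzyme, at -0.41, and Spr, sepiapterin reductase, at -0.27. Agpat5, an acyltransferase of phosphatidic acid synthesis, had 4.70 and 4.39 in REDD1 KO and 6.52 and 6.75 in wild-type epidermis. It was the only call among 31 tested genes of sterol and fatty acid synthesis, whose median log2 difference was -0.23 with 9 members positive and 22 negative (-0.04 without REDD1 KO vehicle replicate 1, -0.35 without wild-type vehicle replicate 2). Sdr9c7, an oxidoreductase needed for the lipid envelope of cornified cells, differed by -1.39 on its called probe (limma adjusted p = 0.00951). Its other tested probes had higher signals, stood at 0.25 and -0.30 and were not called. Nt5c3, a pyrimidine nucleotidase, differed by -1.34. Among 24 tested genes of retinol, alcohol and aldehyde metabolism Adh7 was again the only call. Over all genes tested, with 1 probe per gene, the share called lower was 0.332%. Rdh10, a retinol dehydrogenase, stood at 0.44 and Aldh1a1, which makes retinoic acid, at 0.64.

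Of the genes of ribosome biogenesis and RNA polymerase I, 4 were called. Mak16, a factor of large-subunit ribosome assembly, had 4.32 on both REDD1 KO arrays and 6.76 and 6.90 in wild-type epidermis on its called probe. This probe was at least 4.65-fold lower (limma adjusted p = 0.000384), while a second Mak16 probe stood at -0.19 and was not called. Twistnb, a subunit of RNA polymerase I, had 4.88 and 4.80 in REDD1 KO and 6.47 and 6.81 in wild-type epidermis on the stronger of its 2 called probes. Pop4, a subunit of the ribonucleases P and MRP, had 8.68 and 8.76 in REDD1 KO and 10.31 and 10.25 in wild-type epidermis. On their called probes all 3 were lower in REDD1 KO with narrow spread within each genotype. Nop58, a core protein of box C/D small nucleolar particles, ran the other way. It had 10.52 and 10.63 in REDD1 KO and 8.89 and 9.17 in wild-type epidermis. Pop4 and Nop58 lost their calls without either REDD1 KO vehicle array, and Pop4 also without wild-type vehicle replicate 2, with adjusted p values of up to 0.0693 and 0.0843. Of 41 tested genes of ribosome biogenesis and RNA polymerase I, 1 was thus called higher and 3 lower, with a list median of -0.009 (-0.10 without REDD1 KO vehicle replicate 1 and 0.04 without REDD1 KO vehicle replicate 2). With 1 probe per gene, calls made up 0.193% (higher) and 0.332% (lower) of all genes tested.

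Rpl29, a protein of the large ribosomal subunit, had 4.60 and 4.16 in REDD1 KO and 7.93 and 8.10 in wild-type epidermis on its called probe, at least 10.5-fold lower. A second probe of Rpl29 had 11.2 and 11.3 in REDD1 KO and 11.8 and 11.7 in wild-type epidermis, a log2 difference of -0.48 with an adjusted p of 0.378. The probes shared a direction but not a size. The cytosolic ribosome list, with this second probe standing for Rpl29, had 0 calls among 48 genes (limma; unadjusted p under 0.05 for 1 higher and 1 lower), with 40 positive and 8 negative. Its median was 0.11 with all arrays, 0.009 without wild-type vehicle replicate 2 and 0.18 without wild-type vehicle replicate 1. Tomm22, a receptor of the mitochondrial outer membrane import complex, had 7.09 and 7.13 in REDD1 KO and 9.32 and 8.90 in wild-type epidermis. It was the only call among 45 genes of mitochondrial import and the respiratory chain, beside 0.332% of all genes called lower.

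Atp2c1, the Golgi calcium pump whose human counterpart is mutated in the blistering disorder Hailey-Hailey disease, had 4.90 and 4.94 in REDD1 KO and 6.54 and 6.91 in wild-type epidermis. Tmem87a, a Golgi membrane protein, had 4.90 and 4.99 in REDD1 KO and 7.33 and 6.98 in wild-type epidermis. On their called probes both were lower in the mutants, by -1.81 and -2.21 on the log2 scale. A second Atp2c1 probe stood at 0.18 and was not called. Rab6b, a GTPase of Golgi traffic, had 8.10 and 7.14 in REDD1 KO and 4.84 and 5.09 in wild-type epidermis (log2 difference 2.65 ± 0.282 SE, adjusted p = 0.00453). Sys1, a Golgi protein that recruits small GTPases, differed by 1.05, and Trappc12, a subunit of a vesicle tethering complex, by 1.22. Saraf, an inhibitor of calcium entry after store depletion, differed by -1.19 on its called probe. Its other tested probes stood at -0.60 and 0.38 and were not called.

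Further called reductions of at least 1.5 on the log2 scale were of mixed function. Prkag2, a regulatory subunit of the energy sensor AMPK, had 4.75 and 4.61 in REDD1 KO and 6.43 and 6.32 in wild-type epidermis. It was called lower by -1.69 ± 0.153 (SE; adjusted p = 0.00208). Fgfr1op2, named as a fusion partner of the receptor Fgfr1, had 6.92 and 6.44 in REDD1 KO and 9.13 and 8.86 in wild-type epidermis. A second Fgfr1op2 probe stood at -0.50 and was not called. H2-T10, of the non-classical MHC class I region and annotated as a transcribed pseudogene, had 5.78 and 5.75 in REDD1 KO and 7.48 and 7.46 in wild-type epidermis. The replicates of H2-T10 were nearly equal, but its call was lost in 4 of the 8 fits that leave out an array, namely without any 1 of the 4 vehicle arrays (adjusted p up to 0.0883), and it belongs to a family of near-identical genes. H2aj, a histone H2A variant, had 4.19 and 4.17 in REDD1 KO and 5.58 and 5.92 in wild-type epidermis, at least 2.20-fold lower. The call of H2aj was lost without REDD1 KO vehicle replicate 2 (adjusted p = 0.0584). Ang, the ribonuclease angiogenin, had 5.90 and 5.77 in REDD1 KO and 7.46 and 7.37 in wild-type epidermis. Omitting any 1 of the vehicle arrays ended its call (adjusted p up to 0.136), and 0 of the other 5 tested genes of its ribonuclease family were called. Rnase6, of that family, stood at 0.64 (adjusted p = 0.163).

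Several calls were the only ones in their lists. These were H2-T10 among 26 MHC class I region genes, Cyp2f2 among 17 cytochrome P450 genes and Atm among 21 genes of the DNA damage response. Of all genes tested, with 1 probe per gene, 0.332% were called lower. Further probes in this range were Plekha4, a pleckstrin homology domain protein, with 5.43 and 5.30 in REDD1 KO and 6.90 and 7.29 in wild-type epidermis, and Pxylp1, a phosphatase of proteoglycan synthesis, with 7.34 and 6.78 in REDD1 KO and 8.65 and 8.56 in wild-type epidermis. Gramd4 had 4.22 and 4.26 in REDD1 KO and 5.61 and 6.14 in wild-type epidermis, and Pou6f1, a POU homeodomain transcription factor, had 4.20 and 4.27 in REDD1 KO and 5.79 and 5.91 in wild-type epidermis. Both were at background in REDD1 KO, at least 2.39-fold and at least 2.35-fold lower. Fam177a had 4.57 and 4.60 in REDD1 KO and 6.17 and 6.06 in wild-type epidermis. The second called Twistnb probe had 5.04 and 4.58 in REDD1 KO and 6.35 and 6.39 in wild-type epidermis. The Plekha4, Pxylp1, Gramd4, Pou6f1 and second Twistnb calls were lost without at least 1 of the vehicle arrays. Probes without a symbol in this range were ILMN_2733542, with 7.13 and 7.10 in REDD1 KO and 8.91 and 9.21 in wild-type epidermis, and ILMN_1221102, with 4.17 and 4.29 in REDD1 KO and 5.74 and 5.91 in wild-type epidermis. In all, 15 called probes were below background on both REDD1 KO arrays and 3 on both wild-type arrays.

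Smaller called reductions included Atm, the kinase that responds to DNA double-strand breaks, with a log2 difference of -1.48 (adjusted p = 0.00594). They also held Ackr4, a scavenging receptor for homing chemokines, with 2 called probes at -0.99 and -0.96. Omitting any 1 of the vehicle arrays ended both Ackr4 calls. Cap1, an actin-binding protein, differed by -1.20, Stap2, a signalling adaptor, by -1.38, Chl1, a neural adhesion molecule, by -1.13, and Esd, esterase D, by -1.13. Further probes of Stap2 (-0.16) and Chl1 (0.42 and -0.40) were not called. Omitting any 1 of the vehicle arrays ended the calls of Cap1, Chl1 and Esd. The Stap2 call was lost without either REDD1 KO vehicle array or wild-type vehicle replicate 2, and the Atm call without either REDD1 KO vehicle array. Lrp12, a receptor of the LDL receptor family, was just inside the threshold at -0.94 (adjusted p = 0.0499), as were Klk1b22 (0.0499) and Esd (0.0434). Just outside it, at an adjusted p of 0.0596 each in limma, were a second Atm probe (-0.89), Csrnp1 (-0.98) and Lrrc57 (0.80). The Lrp12 call was lost whichever of the 8 arrays was left out.

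Called increases were fewer. Klk1b22, a glandular kallikrein of the Klk1 family, had 6.77 and 7.61 in REDD1 KO and 4.20 and 4.26 in wild-type epidermis. It was at background in wild-type and at least 5.88-fold higher in REDD1 KO, but its call was lost in 6 of the 8 fits that leave out an array, namely without any 1 of the vehicle or REDD1 KO FA arrays (adjusted p up to 0.366). Klk1b27, the only other member of this family tested, had a log2 difference of 0.65 (adjusted p = 0.23). Trim2, a ubiquitin ligase, had 8.96 and 8.55 in REDD1 KO and 6.53 and 7.22 in wild-type epidermis on its called probe. Omitting either REDD1 KO vehicle array or wild-type vehicle replicate 1 ended this call. A second Trim2 probe, with higher signals, stood at 0.16 and was not called. Ovol2, a zinc finger factor that maintains epithelial identity, was called by 2 probes, with 6.90 and 6.92 in REDD1 KO against 5.60 and 5.77 in wild-type epidermis, and with 6.47 and 6.79 in REDD1 KO against 5.25 and 5.47 in wild-type epidermis. The 2 probes gave nearly the same log2 difference, 1.22 and 1.27, while another Ovol2 probe stood at 0.13. Omitting any 1 of the vehicle arrays ended both calls (adjusted p up to 0.117 and 0.283). Cops8, a subunit of the COP9 signalosome, differed by 1.22, and Slc10a6, a transporter of sulfated steroids, by 1.26. Epm2aip1, a partner of laforin, differed by 1.13 on its called probe, and Prr15l by 1.01. Further Epm2aip1 probes stood at 0.34 and 0.007 and were not called.

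Several increases were in genes of lymphocytes and of the interferon response. Klra22, of the Ly49 receptors that natural killer cells carry, had 5.96 and 5.98 in REDD1 KO and 4.54 and 4.33 in wild-type epidermis, where it was at background. It was at least 2.53-fold higher, and the call was lost without REDD1 KO vehicle replicate 2 (adjusted p = 0.059). Klra17, of the same family, differed by 1.26, and Cd8b1, the beta chain of the T cell coreceptor CD8, by 1.27 with both wild-type arrays at background. Omitting any 1 of the vehicle arrays ended the calls of both, and that of Klra17 also fell without either wild-type FA array (adjusted p up to 0.235 for Klra17 and 0.0918 for Cd8b1). The Klra genes are close paralogs, so which of them a probe reads is uncertain. Other markers of these cells were not called. Of 16 tested T cell and natural killer cell genes, 2 were called higher and 0 lower in limma, beside 0.193% and 0.332% of all genes. At an unadjusted p under 0.05 there were 2 and 2, beside 4.51% and 4.15% of all genes. The list's median was -0.06 (0.08 without wild-type vehicle replicate 1, -0.33 without wild-type vehicle replicate 2). Summed epidermal T cell markers were 817 and 945 in REDD1 KO and 1523 and 939 in wild-type epidermis, which overlap, and Cd8a was not detected on any vehicle array.

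Of the 28 tested interferon-induced genes, 3 were called higher and 0 lower, beside 0.193% and 0.332% of all genes. Oasl2, of the oligoadenylate synthetase family, had 5.72 and 5.97 in REDD1 KO and 4.75 and 4.36 in wild-type epidermis. Oas1g, an oligoadenylate synthetase, had 6.39 and 6.34 in REDD1 KO and 5.13 and 5.26 in wild-type epidermis. Gbp2b, a guanylate-binding GTPase, had 7.97 and 8.36 in REDD1 KO and 6.76 and 6.93 in wild-type epidermis. The log2 differences were 1.29, 1.17 and 1.32, with adjusted p values of 0.0139, 0.0254 and 0.0189 in limma. Each of the 3 calls was lost without either REDD1 KO vehicle array and without wild-type vehicle replicate 2, and those of Oas1g and Gbp2b also without wild-type vehicle replicate 1 (adjusted p up to 0.162, 0.187 and 0.194). At an unadjusted p under 0.05, 9 of 28 genes were higher and 0 lower, beside 4.51% and 4.15% of all genes with 1 probe per gene. Of the 28, 16 had both REDD1 KO arrays above both wild-type arrays, beside 20.3% of all genes. The median log2 difference of the list was 0.35 and 26 of 28 were positive, against a median of 0.01 over all 9343 genes tested. Cxcl9, a chemokine induced by interferon gamma, had 5.51 and 6.93 in REDD1 KO and 4.84 and 4.74 in wild-type epidermis and was not called (adjusted p = 0.236), its REDD1 KO arrays being far apart. Isg15, a ubiquitin-like modifier, had 5.52 and 5.92 in REDD1 KO and 5.34 and 4.73 in wild-type epidermis and was not called either. The list is not uniform, since Irf7, Ifit3, Zbp1 and Gbp7 overlapped between genotypes.

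**Figure D2:**
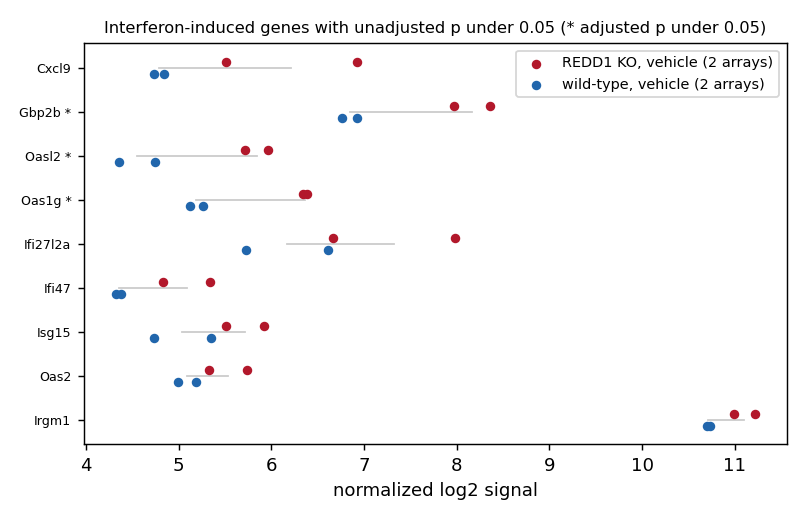
Normalized log2 signal (x axis) of the 9 interferon-induced genes with an unadjusted p under 0.05, of 28 tested, on each vehicle array (red, REDD1 KO; blue, wild-type; 2 arrays each), sorted by log2 difference; an asterisk marks the 3 called genes Gbp2b, Oasl2 and Oas1g. The genes were chosen by this p, and the REDD1 KO arrays of Cxcl9 (5.51 and 6.93) lie far apart.

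The promoters of these 3 called genes are shown because they rose together, and because genes of this kind often carry the interferon-stimulated response element in their promoters. RefSeq sequences of assembly GRCm38.p6 were searched on both strands for 2 copies of GAAA set apart by 2 bases of any kind, in windows given as 250 bases before a start site and 50 after it. The start site of the table is not the outermost start of the gene annotation for Gbp2b and Oasl2. Matches are in capitals. Gbp2b lies on the plus strand at chr3:142594597-142594896, Oas1g on the minus strand at chr5:120887564-120887863 and Oasl2 on the plus strand at chr5:114896684-114896983.
Gbp2b: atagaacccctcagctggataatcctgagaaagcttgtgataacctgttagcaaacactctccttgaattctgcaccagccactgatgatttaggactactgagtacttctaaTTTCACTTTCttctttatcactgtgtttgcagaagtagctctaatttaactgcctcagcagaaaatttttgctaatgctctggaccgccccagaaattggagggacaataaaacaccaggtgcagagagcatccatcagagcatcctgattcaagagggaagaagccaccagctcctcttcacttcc
Oas1g: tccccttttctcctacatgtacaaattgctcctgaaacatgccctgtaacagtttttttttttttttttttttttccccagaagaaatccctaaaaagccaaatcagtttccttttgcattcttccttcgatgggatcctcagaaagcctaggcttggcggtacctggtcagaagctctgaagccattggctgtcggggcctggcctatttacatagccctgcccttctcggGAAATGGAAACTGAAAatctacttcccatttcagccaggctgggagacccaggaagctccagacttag
Oasl2: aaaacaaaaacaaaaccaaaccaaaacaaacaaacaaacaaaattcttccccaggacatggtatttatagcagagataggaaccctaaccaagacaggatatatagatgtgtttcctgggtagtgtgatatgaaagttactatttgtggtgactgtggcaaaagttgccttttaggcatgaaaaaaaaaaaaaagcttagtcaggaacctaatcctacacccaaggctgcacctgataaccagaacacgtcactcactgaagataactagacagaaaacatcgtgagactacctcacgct
Gbp2b held 1 match, on the minus strand, Oas1g held 2 overlapping matches on the plus strand just before its start, and Oasl2 held 0 in this window. Of all 27025 genes with a promoter in the table, 3.99% held a match, and of the 22 tested interferon-induced genes with a promoter, 14 did (63.6%). Of the 7 with a promoter among the 9 genes at an unadjusted p under 0.05, 4 did (57.1%). A match describes the letters alone.

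Calls were few in the pathway that REDD1 acts on, and only RNA was measured. With 1 probe per gene, 0.193% of all genes tested were called higher and 0.332% lower in limma. At an unadjusted p under 0.05 the shares were 4.51% and 4.15%. These shares stand beside the counts of each list that follows. Of 38 tested genes of mTORC1 and its regulators, 0 were called higher and 1, Prkag2, lower (limma; 0 and 3 at an unadjusted p under 0.05), with a median of 0.03 that was -0.11 without wild-type vehicle replicate 2. Tsc2, the partner of TSC1 in the complex that restrains mTORC1, had 9.45 and 9.33 in REDD1 KO and 9.98 on both wild-type arrays and was not called (-0.59, adjusted p = 0.236). Atf4, the transcription factor of the amino acid stress response, had 4.73 and 4.75 in REDD1 KO and 6.09 and 6.28 in wild-type epidermis, a log2 difference of -1.45 that missed the threshold (adjusted p = 0.077). The genotypes were separate for Atf4, but its target Asns, asparagine synthetase, stood at 0.35, and 0 of 26 genes of that list were called (limma; unadjusted p under 0.05 for 0 higher and 1 lower). Of 25 autophagy and lysosome genes 0 were called (limma; unadjusted p under 0.05 for 1 higher and 2 lower). Map1lc3b, a coat protein of autophagosomes, stood at 0.71 and Ctsl, a lysosomal protease, at -0.77. Among 18 genes of hypoxia and glycolysis, 15 were negative, beside 4479 of all 9343 genes tested. The list's median was -0.33 (-0.57 when wild-type vehicle replicate 1 was omitted and -0.15 when replicate 2 was). Of the 18, 0 were called (limma; unadjusted p under 0.05 for 0 higher and 4 lower). Pfkp, a phosphofructokinase, stood at -0.76 and Hk2, a hexokinase, at -0.70.

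**Figure D3:**
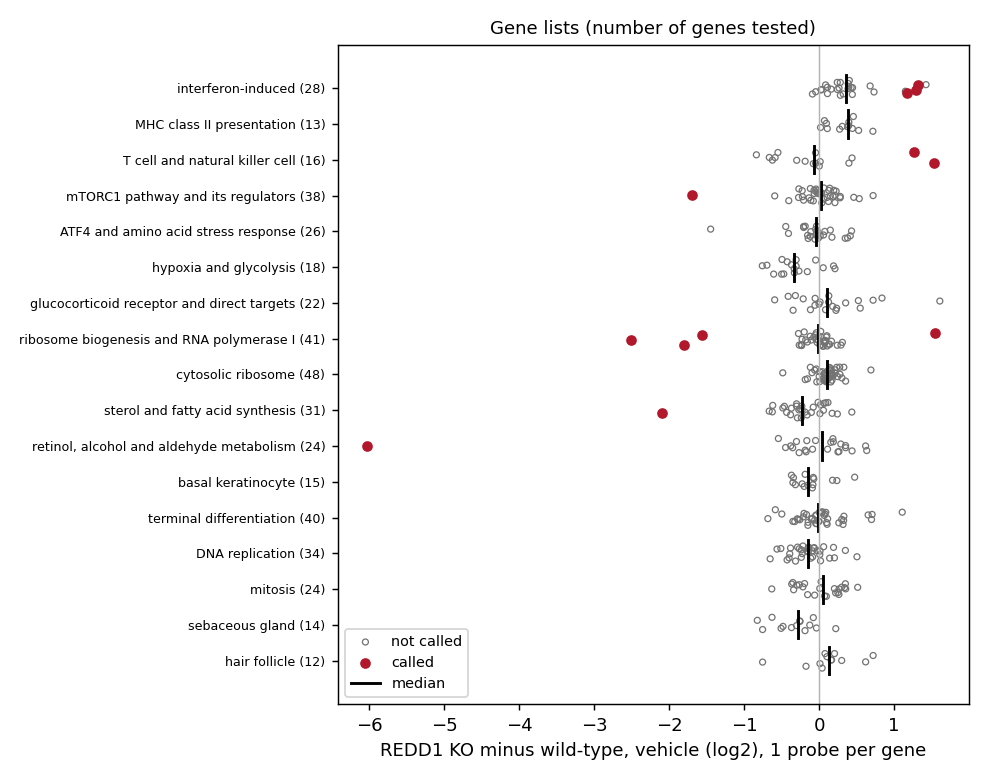
Log2 difference (REDD1 KO minus wild-type, vehicle; x axis) of each tested gene of 17 lists, 1 probe per gene, with the number of genes in brackets; red points are called, open points are not, and the black bar is the list's median. Called genes lie far from their list's median, as Adh7 does at -6.04, while medians lie between -0.33 for hypoxia and glycolysis and 0.38 for MHC class II presentation.

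The keratinocyte lists held no calls, which with 2 arrays per group does not show that the genotypes were alike. None of 15 basal keratinocyte genes (limma; unadjusted p under 0.05 for 1 higher and 0 lower) and none of 40 terminal differentiation genes (0 higher and 1 lower) was called, with medians of -0.15 and -0.02. The terminal differentiation median was -0.14 without wild-type vehicle replicate 1 and 0.16 without wild-type vehicle replicate 2, so its sign is not settled, and the basal median was -0.02 when REDD1 KO vehicle replicate 1 was left out and -0.27 when wild-type vehicle replicate 1 was. Of the basal genes 3 were positive and 12 negative, and the highest of them was Krt15. This keratin of basal and bulge cells had 13.62 and 13.29 in REDD1 KO and 13.14 and 12.82 in wild-type epidermis (adjusted p = 0.55). Krt2, a suprabasal keratin, had 5.15 and 5.09 in REDD1 KO and 5.81 and 5.79 in wild-type epidermis (adjusted p = 0.433). Both were separate between genotypes and neither passed. For DNA replication 0 of 34 genes were called (limma; unadjusted p under 0.05 for 0 higher and 3 lower) and for mitosis 0 of 24 (0 and 1). The mitosis median, 0.05, was 0.52 when REDD1 KO vehicle replicate 1 was omitted and -0.46 when wild-type vehicle replicate 1 was, so it has no settled sign. The DNA replication median, -0.14, likewise lay at 0.18 without wild-type vehicle replicate 2. S100a9, an alarmin of irritated epidermis and of neutrophils, had 6.88 and 10.35 in REDD1 KO and 6.47 and 5.86 in wild-type epidermis and was not called (adjusted p = 0.489), its REDD1 KO arrays differing by more than the genotype means did. No gene was called among 14 of the sebaceous gland (limma; none had an unadjusted p under 0.05) or 12 of the hair follicle (1 higher and 0 lower), with medians of -0.28 and 0.13. The sebaceous gland median was -0.93 without REDD1 KO vehicle replicate 2 and 0.02 without REDD1 KO vehicle replicate 1, and the hair follicle median was 0.07 without REDD1 KO vehicle replicate 2.

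Of the 22 tested genes of the glucocorticoid receptor and its direct targets, 0 were called in vehicle-treated epidermis (limma; unadjusted p under 0.05 for 3 higher and 2 lower), with a median of 0.11 that was -0.21 without wild-type vehicle replicate 2 and so has no settled sign. Dusp1, a phosphatase that curbs MAP kinases, had 11.23 and 11.46 in REDD1 KO and 10.72 and 10.29 in wild-type epidermis (adjusted p = 0.236). Of 13 MHC class II presentation genes, 13 were positive and 0 were called (limma; unadjusted p under 0.05 for 2 higher and 0 lower), with a median of 0.38 (0.21 without wild-type vehicle replicate 2), and 8 had both REDD1 KO arrays above both wild-type arrays, beside 20.3% of all genes. H2-Oa, a modulator of class II peptide loading, stood at 0.72. Of 16 Langerhans cell and macrophage genes, 12 were positive, 4 negative and 0 called (limma; unadjusted p under 0.05 for 3 higher and 1 lower), with a median of 0.28. The highest of them, Fcer1g, the signalling chain of Fc receptors, had 8.46 and 8.33 in REDD1 KO and 7.68 and 7.02 in wild-type epidermis (adjusted p = 0.156).

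The same contrast in FA-treated mice uses 4 other arrays and shares none with the vehicle comparison, although the fit shares its estimate of spread. In FA-treated epidermis 940 probes (7.16%) were called between the genotypes, 412 higher in REDD1 KO (3.14%) and 528 lower (4.02%). Of the 67 probes called with vehicle, 60 were also called with FA, 17 of the 22 higher and 43 of the 45 lower, and 65 had the same sign. Adh7 had a log2 difference of -6.33 with FA and -6.04 with vehicle, Me1 -3.90 with FA and -4.08 with vehicle, and Rab6b 3.41 with FA and 2.65 with vehicle. Cyp2f2 stood at -5.03 with FA and -3.10 with vehicle. The 2 probes with opposite signs were those of Dppa5a, a gene of pluripotent stem cells, at -0.42 with FA and 1.06 with vehicle, and of Oasl2, at -0.02 with FA and 1.29 with vehicle. Oasl2 was not detected on any of the 4 FA arrays, so its sign with FA cannot be read, and the same holds for Cd8b1 at 0.09 with FA and 1.27 with vehicle. Oas1g stood at 0.31 with FA and 1.17 with vehicle, and Atm at -0.54 with FA and -1.48 with vehicle. Gpatch11 and Slc10a6 were likewise called with vehicle only. The difference between the genotype effects was itself tested for every probe, and for 0 of the 67 did it pass (limma; over all probes, 0 called higher with FA and 4 lower, beside 600 and 702 whose unadjusted p was under 0.05). Calls in 1 treatment and not in the other are thus not shown to differ.

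**Figure D4:**
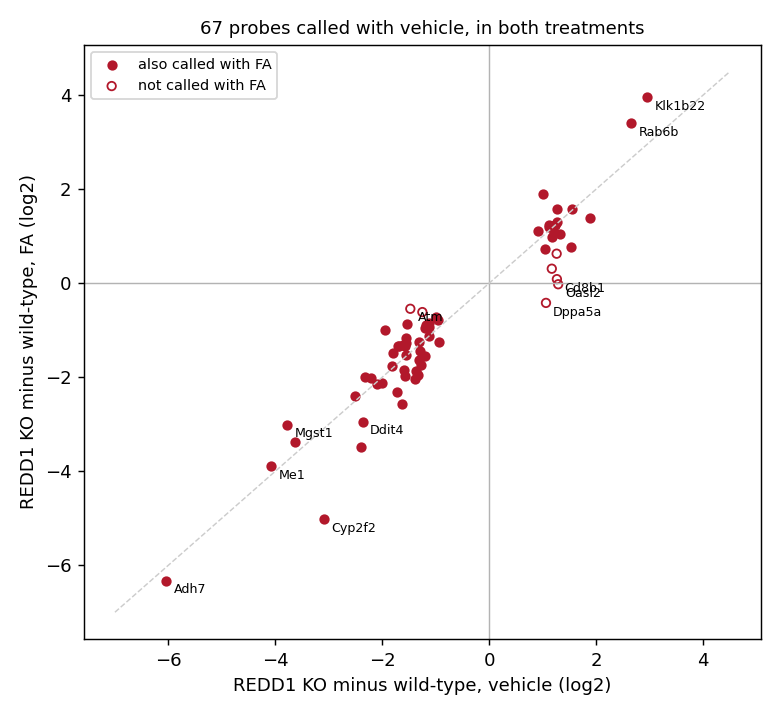
Log2 difference between REDD1 KO and wild-type epidermis for the 67 probes called with vehicle, with vehicle on the x axis and with FA on the y axis (filled, also called with FA, 60 probes; open, not called with FA). Most points lie near the dashed line of equal differences, and Dppa5a (-0.42 with FA, 1.06 with vehicle) lies below it; Oasl2 (-0.02 with FA) and Cd8b1 (0.09 with FA) were not detected on the FA arrays.

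Many of the called genes were represented by further probes, and these often gave another size of difference. Of the 57 called genes, 24 had more than 1 tested probe, and in 3 of them, Ackr4, Gch1 and Twistnb, every tested probe was called. The other 25 tested probes were not called, 20 with the sign of the called probe and 10 with an unadjusted p under 0.05. The second Me1 probe had 10.79 and 10.85 in REDD1 KO and 10.55 and 10.79 in wild-type epidermis, a log2 difference of 0.15 against -4.08 for the called probe. The second Mgst1 probe had 9.16 and 10.73 in REDD1 KO and 10.82 and 9.58 in wild-type epidermis and overlapped between genotypes. The second Trim2 probe had 11.88 and 11.94 in REDD1 KO and 11.80 and 11.70 in wild-type epidermis, a difference of 0.16 against 1.88. For these genes the large difference was seen on 1 probe only. Mak16 stood at -0.19 on its second probe, Atp2c1 at 0.18 and Stap2 at -0.16. The further probes of Sdr9c7 stood at 0.25 and -0.30, and those of Epm2aip1 at 0.34 and 0.007. The second probes of Lrp12 (-0.87), Dppa5a (0.97) and Prr15l (0.84) gave values near those of the called probes (-0.94, 1.06 and 1.01) while missing the threshold. Those of Slc10a6 (0.81), Fam177a (-1.07) and Atm (-0.89) were smaller than the called probes (1.26, -1.53 and -1.48) with the same sign. Where the bases targeted by 2 probes of a gene lie was not analysed here.

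**Figure D5:**
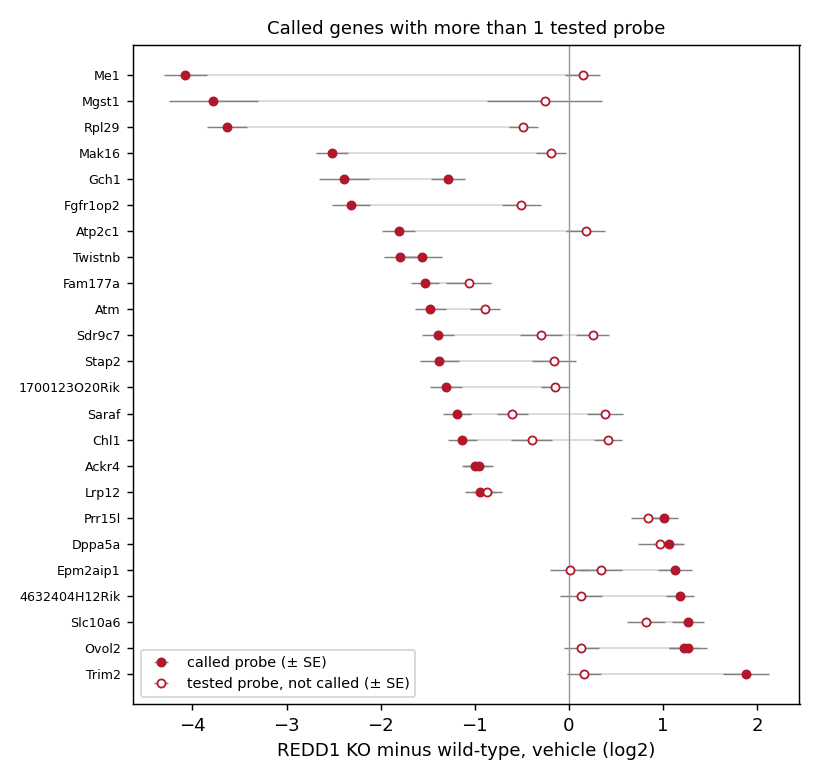
Log2 difference (REDD1 KO minus wild-type, vehicle; x axis) of every tested probe of the 24 called genes with more than 1 tested probe (filled, called; open, not called; bars are the SE from limma). For Me1 the probes lie at -4.08 and 0.15 and for Trim2 at 1.88 and 0.16, while the 2 Ackr4 probes lie together at -0.99 and -0.96.

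Called probes were spread unevenly over the genome as mapped through RefSeq. Chromosome 9 held 10 called of 690 tested probes (1.45%), chromosome 14 held 5 of 407 (1.23%) and chromosome 6 held 7 of 649 (1.08%), against 0.51% of all tested probes, while chromosomes 13, 16, 18, 19 and X held 0 called probes. On chromosome 9, a stretch chosen after its values were seen, running 24.7 Mb from Me1 to Epm2aip1, held 8 called of 184 tested probes (4.35%). These belong to Me1, Pxylp1, Rab6b, Ackr4, Atp2c1, Rpl29 and Epm2aip1, of which Rab6b and Epm2aip1 were higher in REDD1 KO and the others lower. On chromosome 6, a stretch of 16.8 Mb from Klra17 to Fgfr1op2, also chosen after the fact, held 4 called of 57 probes (7.02%), of Klra17, H2aj, Mgst1 and Fgfr1op2. Chromosome 10, where Ddit4 lies, held 2 called of 562 probes (0.356%), Ddit4 and Sdr9c7.

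The calls differed in how firmly they held. When each of the 8 arrays was left out in turn, and in 11 other settings of scaling, filtering and fitting, 13 of the 67 probes were called in every setting in which they were fitted: those of Adh7, Me1, Rpl29, Mak16, Fgfr1op2, Tmem87a, Agpat5, Tomm22, Atp2c1, Prkag2, Fam177a, the stronger Twistnb probe and ILMN_2733542. All 13 were lower in REDD1 KO. Other probes of the same gene were not among these settings. Second probes of Me1 (0.15), Atp2c1 (0.18), Mak16 (-0.19), Rpl29 (-0.48), Fgfr1op2 (-0.50) and Fam177a (-1.07) were not called. Rab6b was called without each array in turn but not without background correction or without a probe filter. Every other called probe lost its call without at least 1 array. With only the 4 vehicle arrays fitted, and the FA arrays left out of the spread, 38 of the 67 calls were lost. The number of calls on the vehicle arrays depended on each of the 4 arrays compared: omitting REDD1 KO vehicle replicate 1 left 5 higher and 18 lower, and omitting REDD1 KO vehicle replicate 2 left 1 and 16. Omitting wild-type vehicle replicate 1 left 15 and 25, and omitting wild-type vehicle replicate 2 left 5 and 23.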

How the data were processed

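Epidermal RNA was hybridized to 8 Illumina MouseRef-8 v2.0 BeadChip arrays, 2 for each of 4 groups. The authors deposited bead intensity values for 25697 probes and 832 control lines without normalization, and with each a detection p-value (per the file headers). The deposited log2 values come from the authors' neqc normalization in limma (background from negative controls, offset, quantile normalization), and their version of limma is not stated. These log2 values were used as deposited, and neqc run here on the intensities (offset 16, with the last 798 control lines taken as negative, which the detection p-values imply) differed from them by at most 5e-09. Left out were 2 broken text lines.

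The 13131 tested probes (9343 genes) had a detection p below 0.05 on 2 or more of the 8 arrays. A model with 1 mean per group over all 8 arrays was fitted in limma 3.58.1 (R 4.3.3), moderated by eBayes (degrees of freedom: residual 4, prior 5.08). Its p-values are two-sided, with Benjamini-Hochberg adjustment across the 13131 probes. Precision is limited by the number of arrays. Tests on simulated data with known changes were run first. Symbols come from the platform annotation, updated by entrez number or accession through RefSeq (GRCm38.p6): 23978 probes have 1 symbol, 0 several and 1719 none. In the 36 gene lists a gene is represented by its tested probe with the highest mean, and lists are described by counts and medians. Results are given for the 17 lists plotted and for others where they touch a called gene, with no list tested as a set.

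Named are Ddit4, the called probes by function (all arrays where the log2 difference is at least 1.5), called or lowest-p members of lists, probes beside the threshold, further probes of called genes and neighbours of Ddit4. The members, the gene lists and the rule were chosen with earlier results of these data known. Alternatives were other scaling, filters, fits, a replicate block and leaving out each array. Plots used matplotlib 3.10.9 (Python 3.11.15).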

Additional observations from a re-analysis of the deposited data

Results flagged for a closer look

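For 4 probes the genotype effect itself differed between FA-treated and vehicle-treated epidermis in limma, in each case with REDD1 KO below wild-type with FA only. Defb8, a beta-defensin, differed by -4.87 on the log2 scale between the effects (adjusted p = 0.00485), being -4.93 with FA and -0.06 with vehicle. Mgll, monoglyceride lipase, differed by -3.34 (adjusted p = 0.0419), being -3.71 with FA and -0.37 with vehicle. Mpo, myeloperoxidase, differed by -2.63 (adjusted p = 0.0162), being -2.69 with FA and -0.06 with vehicle. Acot5, a peroxisomal acyl-CoA thioesterase, differed by -2.43 (adjusted p = 0.0139), being -2.45 with FA and -0.02 with vehicle. None of the 4 was called in vehicle-treated epidermis. Groups of 2 arrays are too small for a test of single outlying arrays.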

How the results depend on the processing

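Rerunning neqc, keeping probes detected in at least 2 of the 4 arrays compared, array weights and median centring left the counts for vehicle within 1.5 times of 22 higher and 45 lower. Without background correction they were 11 higher and 25 lower, without a probe filter 13 and 27, and with only the 4 vehicle arrays fitted 4 and 27. With trend and robust moderation 35 were higher, and among probes detected in all 8 arrays 19 were lower. Leaving out 1 array gave 1 to 20 higher and 16 to 45 lower. For FA, median centring gave 193 higher and no filter 350 lower, and leaving out 1 array gave 26 to 428 higher and 65 to 537 lower. For the difference between FA and vehicle, 0 were lower without background correction, without a filter or among probes detected in all 8 arrays, 1 with an offset of 50 and 8 with trend and robust moderation, and leaving out 1 array gave 0 to 20 higher and 0 to 18 lower. With the replicate block, 18 were higher and 41 lower with vehicle, 340 and 467 with FA, and 0 and 4 for the difference; the block ended 10 of the 67 calls. Deviations of same-numbered arrays correlated at r = -0.0297 between the vehicle groups and 0.229 between the FA groups. Over all pairs of groups r ran from -0.107 to 0.252. Nothing in the labels ties the numbers, so whether same-numbered arrays share a batch cannot be told. No processing setting reversed a called probe. Other probes of the same gene had the opposite sign for Me1 (0.15), Atp2c1 (0.18), Chl1 (0.42), Saraf (0.38) and Sdr9c7 (0.25). The cause of these changes was not tested. The share of higher probes among calls was 32.8%, and between 30.6% and 40.4% under other scalings. The interferon-induced median of 0.35 was 0.17 without background correction and 0.23 with an offset of 50. The files name no BeadChip, so a chip block was not run. Where leaving out an array left 1 in a group, that array was assumed to vary like the others. Signals near background, where many REDD1 KO values lie, limit fold changes to lower bounds.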
